A study of Homo sapiens with 12 samples.

Results

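The genes described here are the chains of 2 families of adhesion proteins, the integrins and the laminins, in SKBR3 and MDA-MB-453 cells with and without TWEAK. They were taken by name from a list of 36 genes, 18 integrin alpha chains, 8 integrin beta chains and 10 laminin chains, and each of the 36 matched 1 of the 62696 genes that were counted. Laminin chains off the list were not analysed here. SKBR3 and MDA-MB-453 are human breast cancer cell lines of the HER2 subtype, and each stands for 1 line only. TWEAK is a cytokine of the TNF superfamily that binds the receptor Fn14. Each line was measured by poly-A RNA-seq as 3 untreated and 3 TWEAK-treated libraries, which the study describes as biological replicates, 12 libraries in all. The labels give 8 h of starvation in Opti-MEM, 10 ng/ml TWEAK for 48 h and a second dose of TWEAK after 24 h. The handling of the untreated cells is not set out apart from that of the treated ones, so a difference in handling cannot be told apart from TWEAK.

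Integrins are receptors at the cell surface made of 1 alpha and 1 beta chain, and the pair decides which ligand is bound. ITGB1 pairs with most alpha chains, and ITGAV pairs with several beta chains and binds ligands with an RGD motif. ITGB2 pairs with alpha chains known from leukocytes, such as ITGAM and ITGAL. ITGB4 pairs with ITGA6 in the hemidesmosome, the structure that fixes epithelial cells to the basement membrane. Laminins are secreted trimers of an alpha, a beta and a gamma chain that build the basement membrane and are bound by integrins such as those with ITGA3, ITGA6 or ITGA7.

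Libraries held between 24773003 and 35208304 counts. A level is given below as normalised CPM, the count scaled to an equal library size with TMM factors over the 12 libraries. Levels of different genes are compared only as CPM per kilobase of exon. The length used is that of the merged exons of all annotated transcripts of a gene, as 14.561 kb for ITGB1 and 6.515 kb for ITGB5. Orders and shares per kilobase rest on these lengths, and other lengths were not tried. Of the luminal epithelial markers, 6 of 7 reached 1 CPM in SKBR3, with CDH1 below that level, and 7 of 7 did in MDA-MB-453. In SKBR3 and MDA-MB-453, TWEAK replicate 2 stood apart from the other TWEAK libraries. Counts of replicate 2 differed from those of the others with a chi-square per degree of freedom of 21.1 and 23.8 in SKBR3, against 1.78 to 5.74 for the other SKBR3 pairs, and of 10.2 and 5.31 in MDA-MB-453, against 2.09 to 2.85. Calls of chains that rest on one library are given with their value without it, and no such values are given for other genes. As a check of the treatment, NFKB2 and RELB, subunits of the non-canonical NF-κB pathway that Fn14 feeds, rose by 1.79 and 1.44 on the log2 scale in SKBR3. In MDA-MB-453 they rose by 1.67 and 2.75. TNFRSF12A, which encodes Fn14, rose by 0.36 in SKBR3 (adjusted p = 0.0322, edgeR) and was not called in MDA-MB-453 (0.17, adjusted p = 0.129).

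The start regions of the chains that rose in both lines, ITGAM and LAMB3, are shown with those of LAMC1, the laminin chain that rose most in SKBR3, and of LAMA3, a laminin chain that did not pass the test. They are the 250 bases before the start that RefSeq gives on GRCh38.p14, read 5′ to 3′ on the strand of the gene. Capitals mark each match to TGANTCA, the AP-1 motif, or to a loose form of the κB motif of NF-κB, which is GGG and CC with any 5 bases between them, on either strand. The windows are chr16:31259725-31259974 on the plus strand for ITGAM, chr1:209652426-209652675 on the minus strand for LAMB3, chr1:183023170-183023419 on the plus strand for LAMC1 and chr18:23872770-23873019 on the plus strand for LAMA3, the last inside the LAMA3 gene as GENCODE 44 draws it.
ITGAM: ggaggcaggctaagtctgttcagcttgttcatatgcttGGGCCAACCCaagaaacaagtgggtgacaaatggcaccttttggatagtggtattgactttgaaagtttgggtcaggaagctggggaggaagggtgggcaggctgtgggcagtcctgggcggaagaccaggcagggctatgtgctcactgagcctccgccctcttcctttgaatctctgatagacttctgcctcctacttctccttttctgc
LAMB3: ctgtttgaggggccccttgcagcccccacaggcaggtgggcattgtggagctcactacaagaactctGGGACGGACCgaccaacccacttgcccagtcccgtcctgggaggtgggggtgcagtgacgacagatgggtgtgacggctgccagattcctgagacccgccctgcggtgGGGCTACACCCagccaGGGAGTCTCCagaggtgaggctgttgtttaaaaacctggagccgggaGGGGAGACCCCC
LAMC1: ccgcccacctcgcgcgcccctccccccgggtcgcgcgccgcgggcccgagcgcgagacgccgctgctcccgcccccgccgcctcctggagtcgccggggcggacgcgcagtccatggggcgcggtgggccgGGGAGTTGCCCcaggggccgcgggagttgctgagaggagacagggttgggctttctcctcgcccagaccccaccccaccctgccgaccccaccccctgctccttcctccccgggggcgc
LAMA3: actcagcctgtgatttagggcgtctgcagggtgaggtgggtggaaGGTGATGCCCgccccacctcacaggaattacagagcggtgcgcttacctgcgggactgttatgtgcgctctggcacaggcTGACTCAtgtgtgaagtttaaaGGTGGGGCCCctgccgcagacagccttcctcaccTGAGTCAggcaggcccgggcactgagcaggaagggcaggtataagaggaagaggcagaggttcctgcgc
Of the 36 chains 25 were matched to a RefSeq start region. Those not searched were ITGA3, ITGA7, ITGA9, ITGAD, ITGAL, ITGAX, ITGB2, ITGB3, ITGB4, LAMA1 and LAMC3. The AP-1 motif was found in 1 of the 25 windows, that of LAMA3, which held it at 125 and at 69 bases before the start, and in 6.6% of the 27303 windows of all genes. The stricter κB motif, GGG and TTTCC with any 2 bases between them, was in 0 of the 25 windows and in 1.73% of all, and the loose form was in 18 of the 25 windows (72.0%) and in 53.7% of all. These matches describe letters only and say nothing of binding.

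SKBR3 and MDA-MB-453 held different sets of chains. With expression set at a mean of at least 1 CPM in the untreated or in the TWEAK libraries, 21 of the 36 chains were expressed in SKBR3 and 18 in MDA-MB-453. Both lines expressed 14 chains, namely ITGA2, ITGA3, ITGA5, ITGAE, ITGAM, ITGAV, ITGB1, ITGB4, ITGB5, LAMA5, LAMB1, LAMB2, LAMB3 and LAMC1. By this threshold 7 chains were counted in SKBR3 but not in MDA-MB-453 (ITGA1, ITGA2B, ITGA9, ITGB2, ITGB6, ITGB8 and LAMA3) and 4 in MDA-MB-453 but not in SKBR3 (ITGA6, ITGA7, ITGA10 and ITGAL). These sets depend on the threshold. At 0.5 CPM SKBR3 expressed 25 chains and MDA-MB-453 19, and ITGA6, ITGA7, ITGA10, ITGAL and ITGB2 then counted as expressed in both. At 5 CPM the numbers were 18 and 12. Several chains lay close to 1 CPM, as ITGB2 at 0.956 CPM in untreated MDA-MB-453 and ITGAL at 0.976 CPM in TWEAK-treated SKBR3. The other 11 chains were expressed in neither line, and 7 of them (ITGA4, ITGA8, ITGA11, ITGAD, LAMA1, LAMA4 and LAMC3) had at most 3 counts in each of the 12 libraries. ITGAD, an alpha chain of leukocytes, had 0 counts throughout, where 3 counts per library are taken as the limit of detection. Some chains passed 1 CPM through their TWEAK libraries alone, 3 in SKBR3 (ITGA1, ITGAM and ITGB8) and 2 in MDA-MB-453 (ITGAM and LAMB3).

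Per kilobase, ITGA3, the alpha chain of a laminin receptor, and ITGAV led the alpha chains of untreated SKBR3 at 5.52 ± 0.295 and 5.44 ± 0.352 CPM per kb (SD, n = 3), values that did not differ beyond their spread. ITGA2, a collagen receptor chain, followed at 3.50 ± 0.263, and ITGAE and ITGA5 at 2.26 ± 0.0479 and 2.22 ± 0.181. With TWEAK the order became ITGAV at 8.33 ± 1.71, ITGA3 at 7.13 ± 0.0586, ITGA5 at 4.94 ± 0.0556 and ITGAM at 4.17 ± 0.271 CPM per kb, with ITGA2 next at 3.12 ± 0.605. ITGAV and ITGA3 again lay within their spread, while ITGAM, which had stood at 0.139 CPM per kb, had moved above ITGA2 and ITGAE. In untreated MDA-MB-453 the order was ITGA6 at 26.8 ± 0.997, ITGA3 at 13.8 ± 0.540, and ITGAV and ITGA2 at 7.50 ± 0.563 and 7.06 ± 0.215, the last 2 within their spread. Before division by exon length, ITGAV stood at 105 and ITGA3 at 54.1 CPM in untreated SKBR3, so their order rests on the length used.

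The most abundant beta chain per kilobase was ITGB5, a partner of ITGAV, in both lines. It stood at 29.0 ± 0.413 CPM per kb in untreated SKBR3, ahead of ITGB4 at 17.6 ± 0.893, ITGB1 at 10.1 ± 0.552 and ITGB6 at 8.78 ± 0.539. Untreated MDA-MB-453 had ITGB5 at 13.2 ± 0.147, ITGB4 at 11.03 ± 0.174 and ITGB1 at 10.8 ± 0.0789 CPM per kb, and every other beta chain was at 0.131 or below. Before division by exon length, ITGB1 was above ITGB5 in untreated MDA-MB-453, at 157 and 85.8 CPM. The lead of ITGB5 in this line therefore rests on the length used.

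Among laminins, SKBR3 was led by LAMA5, the alpha chain of many adult epithelial basement membranes, at 33.1 ± 0.979 CPM per kb, with LAMB1 at 24.6 ± 0.445 and LAMB2 at 23.3 ± 0.472. MDA-MB-453 was led by LAMB2 at 34.0 ± 0.617, followed by LAMA5 at 13.1 ± 0.388. LAMC1, the gamma chain shared by most laminins, was low in both, at 0.145 ± 0.0128 CPM per kb in untreated SKBR3 and at 1.02 ± 0.0818 in untreated MDA-MB-453.

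**Figure D1:**
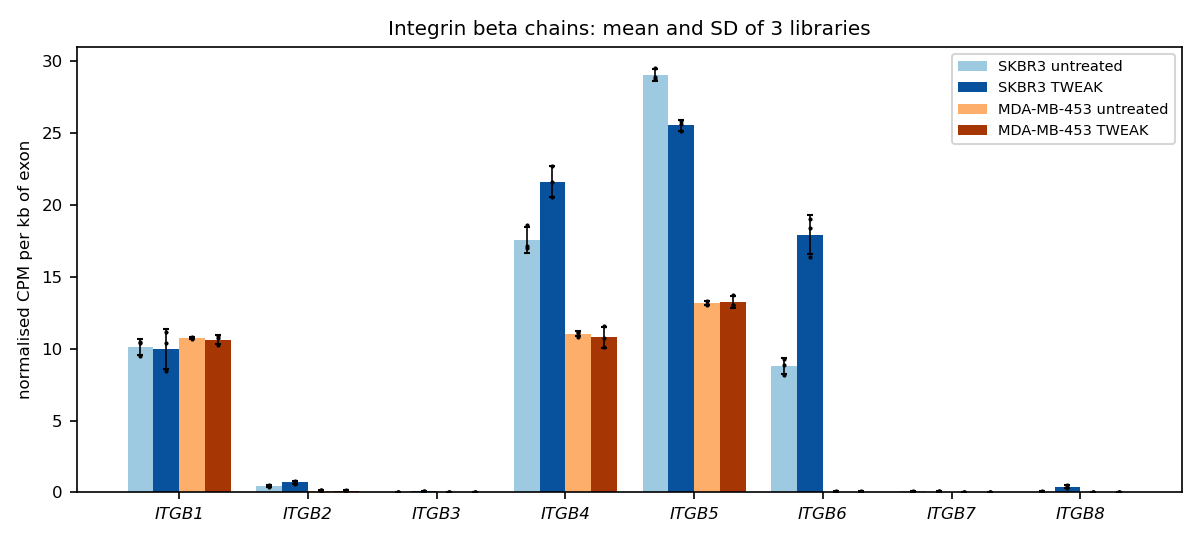
Normalised CPM per kilobase of exon of the 8 integrin beta chains in each group; bars are means, error bars SD and dots the 3 libraries. ITGB5 is highest in each group, and ITGB6 goes from 8.78 to 17.9 CPM per kb with TWEAK in SKBR3 and stays near 0 in MDA-MB-453.

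In GENCODE 44 (GRCh38) the chains with the firmest changes lie on several chromosomes, so that they share no single region. ITGA5 is at chr12:54395261-54419266 and LAMB3 at chr1:209614870-209652425, both on the minus strand, LAMC1 at chr1:183023420-183145592 and ITGB8 at chr7:20330702-20415754 on the plus strand. ITGB6 (chr2:160099667-160200313, minus strand) and ITGAV (chr2:186590010-186680901, plus strand) are both on chromosome 2.

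The first question was which chains responded to TWEAK in SKBR3. Of the 25 chains with enough counts for the test, 11 rose (ITGA3, ITGA5, ITGAM, ITGAV, ITGB2, ITGB4, ITGB6, ITGB8, LAMA5, LAMB3 and LAMC1), 1 fell (ITGB5) and 13 were not called at an adjusted p of at most 0.1 in edgeR's quasi-likelihood test. Among all 15661 genes tested, 6.6% were called higher and 3.82% lower, or 10.4% in either direction. The median log2 fold change was 0.12 over the 25 chains and -0.01 over all genes. Replicates did not overlap for 12 of the 25 chains in the upward and 2 in the downward direction, against 14.4% and 12.2% of all genes. The calls of ITGA3, ITGA5, ITGAM, ITGAV, ITGB6, ITGB8, LAMB3 and LAMC1, 8 of the 12, held under each alternative that was run.

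**Figure D2:**
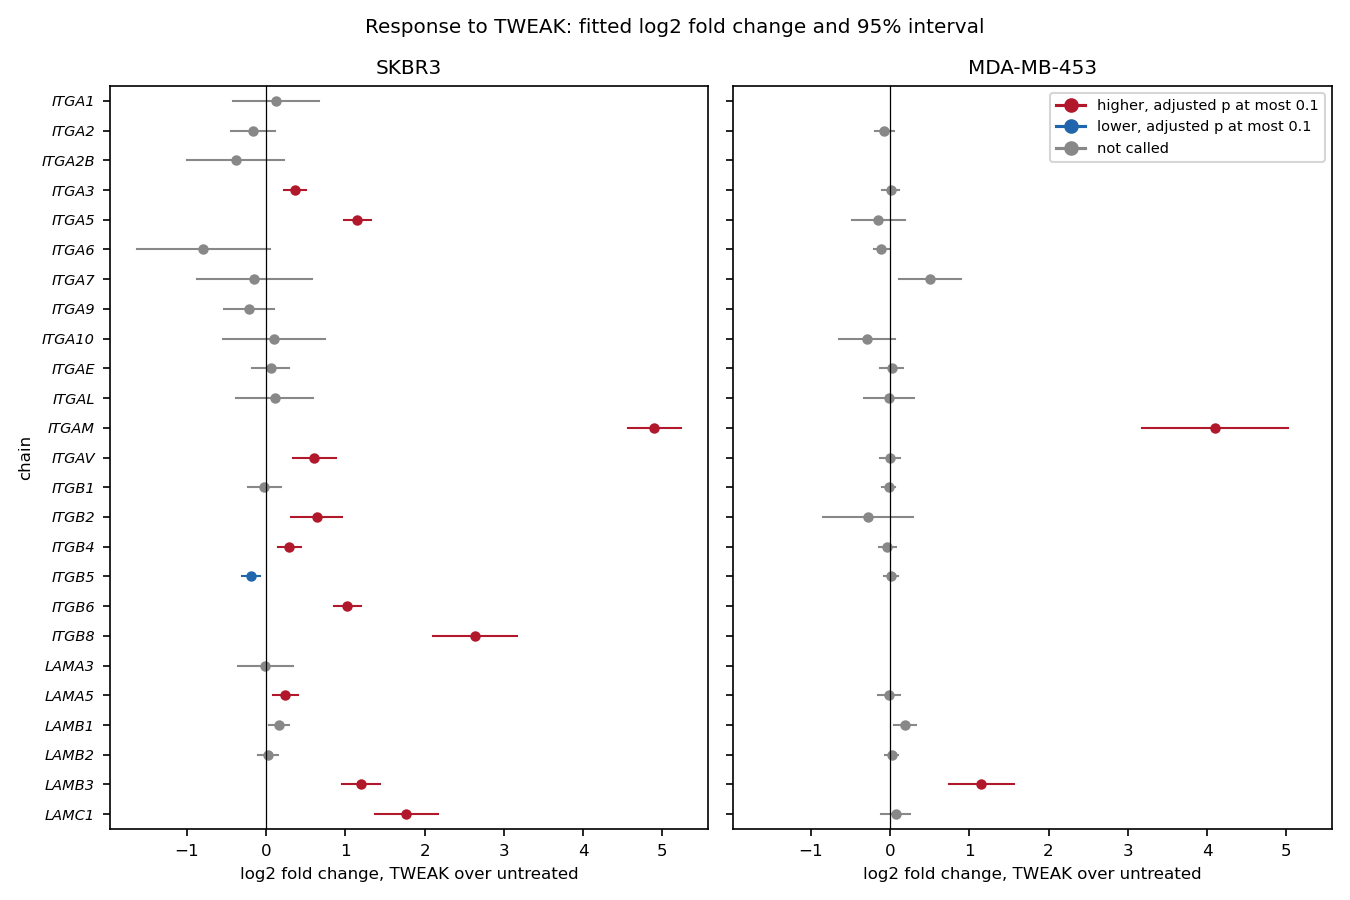
Fitted log2 fold change of TWEAK over untreated, with its 95% interval, for the 25 chains tested in SKBR3 (left) and the 19 tested in MDA-MB-453 (right); red points were called higher, blue lower and grey not called at an adjusted p of 0.1. In SKBR3 11 chains are called higher and 1 lower, and in MDA-MB-453 only ITGAM and LAMB3 are called.

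ITGAM, the alpha chain of a complement and ICAM-1 receptor known from myeloid cells, had the largest fitted change of the 25 chains tested. Its level was 0.718, 0.579 and 1.07 CPM in the untreated SKBR3 libraries and 23.8, 22.2 and 25.2 CPM with TWEAK. Each TWEAK library was far above each untreated one, whose values rest on 14 to 26 counts. The log2 fold change was 4.90 (SE 0.15, adjusted p = 2.22e-08, edgeR), and 12 of the 15661 genes tested had a larger one. ITGAM (chr16:31259967-31332892) is followed on the same strand by ITGAX and ITGAD, the closely related leukocyte chains, with gaps of 22.2 and 10.3 kb. ITGAX did not exceed 5 counts in any of the 12 libraries, and ITGAD was at 0, so that of the 3 neighbours only ITGAM reached 1 CPM in any group.

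ITGB2, the partner of ITGAM, rose less. Its level went from 3.38, 2.90 and 3.67 CPM to 4.44, 5.73 and 5.34 CPM, so that replicates did not overlap, with a log2 fold change of 0.64 (SE 0.15, adjusted p = 0.0214). Without untreated replicate 2 the adjusted p was 0.112. Per kilobase, the ratio of ITGAM to ITGB2 was 0.302 ± 0.0641 in untreated and 5.96 ± 0.953 in TWEAK-treated SKBR3 (SD, n = 3). The antisense gene ITGB2-AS1, which overlaps 4.15% of the exon bases of ITGB2 on the opposite strand, went from 12 to 18 counts in untreated to 32 to 54 counts in TWEAK libraries. Whether the counting used the strand is not stated, so its part in the ITGB2 count was not tested. Other chains share more of their exons. ITGB7, counted here as expressed in neither line, shares 42.3% of its exon bases with ZNF740 on the opposite strand, a gene with 1035 to 1565 counts per library. ITGB3 shares 33.2% and ITGB6 16.7% with genes on the same strand that had 0 and at most 4 counts per library. On the opposite strand ITGA9 shares 9.23% with ITGA9-AS1, at 36 to 146 counts per library. ITGAE shares 7.65% with HASPIN, at 243 to 425 counts, and a gene at 1 to 11. ITGA4, LAMA1, ITGA1, ITGAL and ITGA6 share 26.4%, 11.1%, 8.06%, 6.28% and 5.26% with opposite genes that had at most 10 counts per library. ITGA1, which lay close to 1 CPM in SKBR3, shares 5.77% on the same strand with PELO, at 584 to 1203 counts per library, and RPL17P21, at 0. How the shared bases were counted is not stated, and the levels of these chains are uncertain to that extent. Of the remaining leukocyte chains, ITGAE, whose listed partner is ITGB7, and ITGAL had log2 fold changes of 0.06 (SE 0.10) and 0.11 (SE 0.22). Neither was called. Of 5 leukocyte markers (PTPRC, CD3E, CD14, LYZ and CD68) 0 reached a mean of 1 CPM in any group, and their summed level was 0.682 to 0.827 CPM in untreated and 0.626 to 1.01 CPM in TWEAK-treated SKBR3, ranges that overlap. CD14, the 1 marker with enough counts for the test, was not called (log2 fold change 0.40, SE 0.33, adjusted p = 0.554, edgeR).

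ITGA5, the alpha chain of the fibronectin receptor, was measured at 14.9, 16.7 and 17.5 CPM in untreated and at 36.4, 36.9 and 36.1 CPM in TWEAK-treated SKBR3. The TWEAK libraries lay close together and all above the untreated ones, a log2 fold change of 1.15 (SE 0.08, adjusted p = 4.05e-06). ITGA3 went from 51.0, 56.8 and 54.4 CPM to 69.5, 70.5 and 69.5 CPM, a smaller rise of 0.36 on the log2 scale (SE 0.06, adjusted p = 0.00461) in which replicates again did not overlap. ITGB1, the beta chain with which both of them pair, gave 152, 152 and 138 CPM against 162, 123 and 152 CPM. These groups overlapped and ITGB1 was not called, with a log2 fold change of -0.02 and a 95% interval of -0.23 to 0.18.

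Among ITGAV and the beta chains it pairs with, ITGAV, ITGB6 and ITGB8 were called higher and ITGB5 lower. ITGAV was at 109, 109 and 97.3 CPM in untreated and at 182, 123 and 178 CPM in TWEAK-treated SKBR3, with TWEAK replicate 2 the lowest of its group but above each untreated library. Its log2 fold change was 0.61 (SE 0.13, adjusted p = 0.0116). ITGB6, the partner of ITGAV in an epithelial receptor known to activate TGF-beta, rose from 47.4, 53.5 and 51.5 CPM to 110, 94.9 and 107 CPM, with no overlap, by 1.03 on the log2 scale (SE 0.08, adjusted p = 7.85e-06). ITGB8, the beta chain of another such receptor, rose from 1.15, 0.786 and 0.824 CPM to 7.47, 4.45 and 5.59 CPM. Its TWEAK libraries varied but all exceeded the untreated ones, a log2 fold change of 2.64 (SE 0.24, adjusted p = 4.05e-05).

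ITGB5, in contrast, was at 187, 188 and 192 CPM in untreated and at 167, 169 and 164 CPM in TWEAK-treated SKBR3. Although replicates did not overlap, the log2 fold change of -0.19 (SE 0.05, adjusted p = 0.0607) rests on a small step, and the call was lost without any one of the 5 libraries other than TWEAK replicate 2 (adjusted p from 0.169 to 0.236). ITGB3, the beta chain of the vitronectin receptor, had 0 counts in the 3 untreated libraries and 14, 8 and 12 counts with TWEAK. That is at least 3.90-fold higher than the limit of 3 counts per untreated library, at a mean of 0.462 CPM, but ITGB3 did not pass the filter on low counts and was not tested. Over the per-kilobase sum of ITGB1, ITGB3, ITGB5, ITGB6 and ITGB8, the beta chains with which ITGAV can pair, ITGB6 made up 18.3% ± 0.912 in untreated and 33.2% ± 0.963 in TWEAK-treated SKBR3 (SD, n = 3), and ITGB5 made up 60.5% ± 1.07 and 47.4% ± 2.83.

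**Figure D3:**
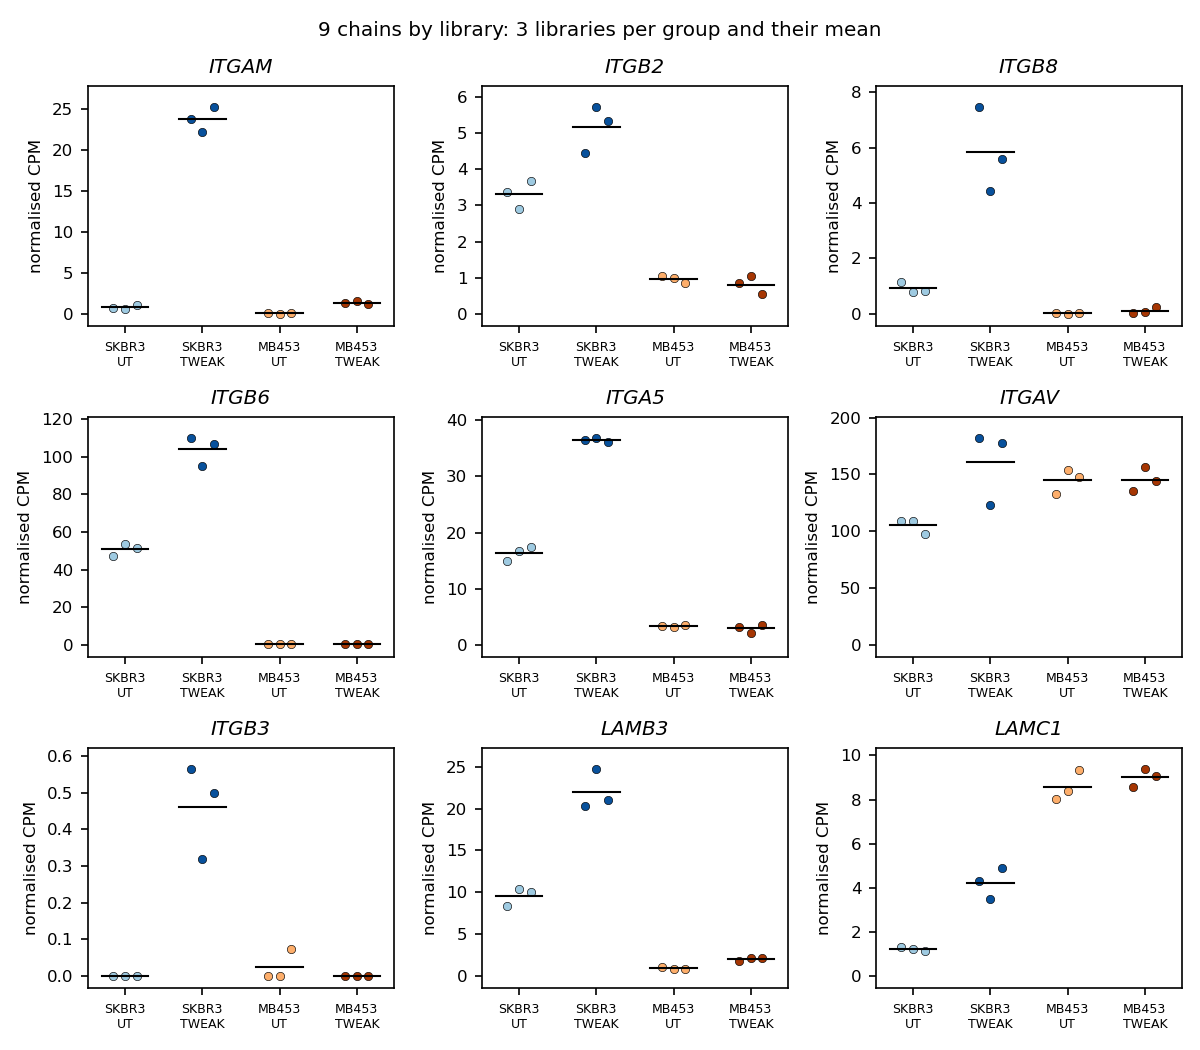
Normalised CPM of 9 chains in the 3 libraries of each group, with a bar at the mean; UT is untreated and MB453 is MDA-MB-453. ITGAM and LAMB3 are higher with TWEAK in both lines, whereas ITGA5, ITGAV, ITGB6 and LAMC1 are higher with TWEAK in SKBR3 and overlap between the groups of MDA-MB-453.

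ITGB4, the hemidesmosome chain, was at 115, 116 and 126 CPM in untreated and at 146, 154 and 139 CPM in TWEAK-treated SKBR3. The groups did not overlap and the log2 fold change was 0.29 (SE 0.07, adjusted p = 0.0182), a call lost without untreated replicate 1 (adjusted p = 0.124) or untreated replicate 2 (adjusted p = 0.129). Its partner ITGA6 was near the threshold of expression in this line, at 0.467, 0.538 and 1.07 CPM untreated and 0.444, 0.401 and 0.334 CPM with TWEAK. These values do not overlap, but ITGA6 was not called (log2 fold change -0.79, SE 0.38, adjusted p = 0.279).

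3 laminin chains were called in SKBR3, 1 of each kind. LAMC1 was at 1.33, 1.24 and 1.11 CPM in untreated and at 4.32, 3.49 and 4.88 CPM in TWEAK-treated libraries. All TWEAK libraries were above all untreated ones, on 27 to 37 and 87 to 117 counts, with a log2 fold change of 1.77 (SE 0.18, adjusted p = 9.21e-05). LAMB3, a beta chain of epithelial laminins found at hemidesmosomes, went from 8.40, 10.4 and 9.97 CPM to 20.3, 24.8 and 21.0 CPM, with no overlap, a log2 fold change of 1.20 (SE 0.11, adjusted p = 4.28e-05). LAMA5 was at 470, 461 and 489 CPM untreated and at 576, 502 and 608 CPM with TWEAK. It rose by 0.24 on the log2 scale (SE 0.07, adjusted p = 0.0732), and the call was lost without any one of the 5 libraries other than TWEAK replicate 2 (adjusted p from 0.136 to 0.298).

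LAMB1, LAMB2 and LAMA3 were not called. LAMB1 was at 465, 457 and 449 CPM untreated and at 532, 486 and 529 CPM with TWEAK, which do not overlap (log2 fold change 0.17, SE 0.06, adjusted p = 0.119). LAMB1 was called higher without TWEAK replicate 2, at 0.21 with an adjusted p of 0.000643, and also in the fit of all 12 libraries, at 0.17. LAMB2 and LAMA3, the alpha chain that pairs with LAMB3, had log2 fold changes of 0.02 (SE 0.06) and -0.01 (SE 0.16). As LAMC1 rose more than the abundant chains, the ratio of LAMA5 to LAMC1 per kilobase went from 230 ± 26.6 to 79.1 ± 5.76 and that of LAMB1 to LAMC1 from 170 ± 12.2 to 56.2 ± 7.07 (SD, n = 3).

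**Figure D4:**
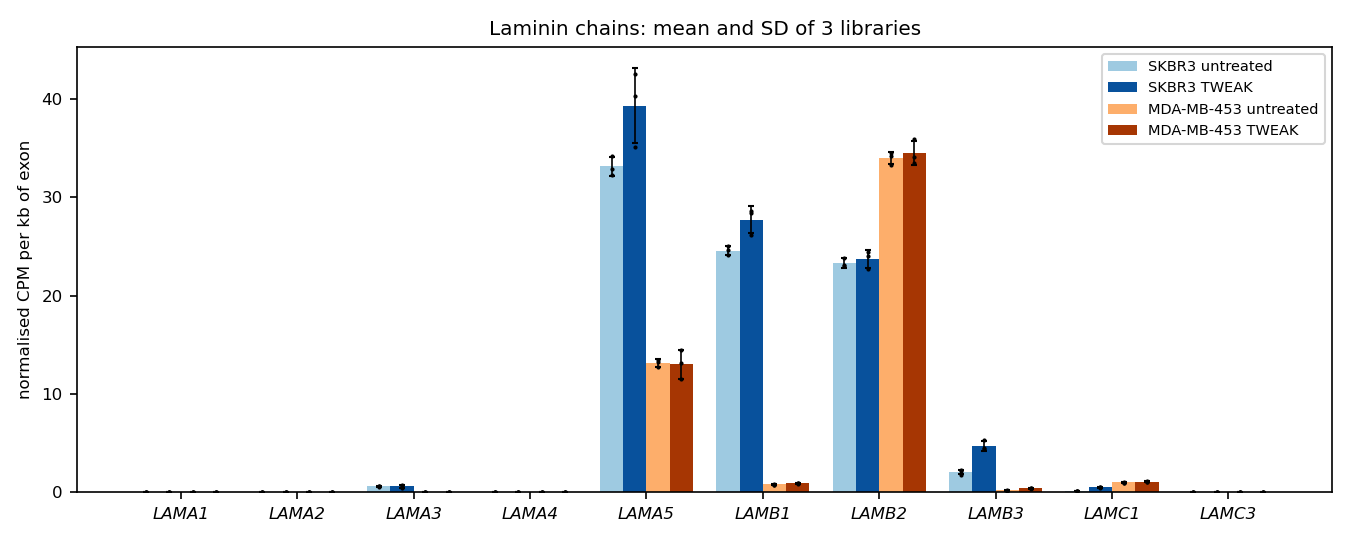
Normalised CPM per kilobase of exon of the 10 laminin chains in each group; bars are means, error bars SD and dots the 3 libraries. LAMA5, LAMB1 and LAMB2 are high in SKBR3, LAMB2 and LAMA5 in MDA-MB-453, and LAMC1 is low in both lines, at 0.145 and 1.02 CPM per kb before treatment.

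The same question in MDA-MB-453 gave 2 called chains, ITGAM and LAMB3, both higher. Of the 19 chains tested 17 were not called, and 0 were called lower by edgeR (1 at an unadjusted p under 0.05, ITGA6) or by DESeq2. Among the 14929 genes tested in this line 1.29% were called higher and 0.208% lower, or 1.49% in either direction. The median log2 fold change was 0.00 over the 19 chains and over all genes.

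ITGAM had 3, 0 and 3 counts in the untreated libraries and 35, 41 and 43 counts with TWEAK, or 0.111, 0 and 0.110 CPM against 1.35, 1.53 and 1.17 CPM. All TWEAK libraries exceeded the untreated ones, which are at the limit of detection, so that ITGAM was at least 12.2-fold higher (adjusted p = 8.77e-05, edgeR). It passed the filter on low counts through its TWEAK libraries alone, so its place among the 2 called chains rests on the group in which it was high, and with at least 10 counts required in every library it was not tested. The level with TWEAK stayed far under that of SKBR3. LAMB3 was at 1.11, 0.802 and 0.844 CPM untreated and at 1.81, 2.13 and 2.18 CPM with TWEAK, again with no overlap, a log2 fold change of 1.15 (SE 0.19, adjusted p = 0.00523). Summed leukocyte markers were at 0.146 to 0.520 CPM in untreated and at 0.154 to 0.336 CPM in TWEAK-treated MDA-MB-453, with CD68 at 0 in the latter.

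The abundant chains of MDA-MB-453 gave close values in both groups. ITGA6 was at 172, 185 and 180 CPM untreated and at 158, 176 and 164 CPM with TWEAK, groups that overlap (log2 fold change -0.11, SE 0.05, adjusted p = 0.415). Without TWEAK replicate 2, ITGA6 and ITGA2 were called lower, at -0.15 (adjusted p = 0.00966) and -0.13 (adjusted p = 0.0627). ITGA6 was also called lower with the replicate number as a block in the fit. ITGB5 was at 86.8, 85.5 and 85.0 CPM against 85.1, 84.8 and 89.6 CPM, with a log2 fold change of 0.01 and a 95% interval of -0.07 to 0.10. LAMB2 gave 237, 235 and 229 CPM against 230, 247 and 234 CPM, with a log2 fold change of 0.02 (95% interval -0.06 to 0.10). Replicates of ITGA7, a laminin receptor chain, and of LAMB1 did not overlap between groups, at log2 fold changes of 0.50 (SE 0.18, adjusted p = 0.335) and 0.19 (SE 0.06, adjusted p = 0.294). Counting ITGAM and LAMB3, replicates of 4 of the 19 chains did not overlap in the upward and 0 in the downward direction, against 8.2% and 6.88% of all genes.

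A fit over the 12 libraries with an interaction term tested whether the response to TWEAK was of the same size in each line. Of 25 chains, 5 had a smaller TWEAK effect in MDA-MB-453 than in SKBR3 (ITGA3, ITGA5, ITGAV, ITGB4 and LAMC1), and 0 had a larger one by edgeR (1 at an unadjusted p under 0.05 and 1 by DESeq2, ITGB5 in both). Among the 17201 genes tested 2.36% were called smaller and 1.01% larger, or 3.37% in either direction. The gap was widest for LAMC1, which was at 8.02, 8.38 and 9.36 CPM in untreated and at 8.58, 9.40 and 9.05 CPM in TWEAK-treated MDA-MB-453, groups that overlap. Its effect differed by -1.70 on the log2 scale (SE 0.19, adjusted p = 4.74e-05). ITGA5 was at 3.38, 3.13 and 3.49 CPM untreated and at 3.15, 2.20 and 3.54 CPM with TWEAK, also overlapping, and differed by -1.30 (SE 0.17, adjusted p = 0.000199).

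The other 3 differences were smaller and less stable. ITGAV, at 133, 154 and 148 CPM and then 135, 157 and 144 CPM in MDA-MB-453, differed by -0.61 (SE 0.16, adjusted p = 0.0469). ITGA3, at 132, 141 and 132 CPM and then 132, 147 and 130 CPM, differed by -0.36 (SE 0.08, adjusted p = 0.0240). ITGB4, at 73.2, 75.0 and 75.4 CPM and then 68.2, 78.2 and 72.4 CPM, differed by -0.33 (SE 0.08, adjusted p = 0.0441). In each of the 3 chains the groups of MDA-MB-453 overlapped. The count of 5 became 8 without TWEAK-treated SKBR3 replicate 2, where ITGB6 (adjusted p = 0.0989), LAMA5 (0.0154) and ITGB3 (0.0279) were added and ITGB5 was called with a larger effect (0.0286). ITGB3 was not tested in the main fit. It passed the filter here through TWEAK-treated SKBR3 alone, so its call rests on the group in which it was high. The count of 5 became 3 without untreated MDA-MB-453 replicate 3 or TWEAK-treated MDA-MB-453 replicate 1. It became 2 without TWEAK-treated MDA-MB-453 replicate 3, where ITGA5 and LAMC1 remained and ITGA3 had an adjusted p of 0.101. The call of ITGAV was lost without SKBR3 untreated replicate 3 or TWEAK replicate 1 or 3, and without MDA-MB-453 untreated replicate 2 or 3 or TWEAK replicate 1 or 3 (adjusted p from 0.108 to 0.148). That of ITGB4 was lost without SKBR3 untreated replicate 1 or 2, and without the same 4 libraries of MDA-MB-453 (adjusted p from 0.122 to 0.137). Without TWEAK-treated MDA-MB-453 replicate 2, ITGB2 was added (adjusted p = 0.0811).

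For the chains that rose in both lines no difference was called. The interaction of LAMB3 was -0.05 with a 95% interval of -0.59 to 0.49, and that of ITGAM was -0.81 with an interval of -2.50 to 0.88, which does not limit the difference closely. ITGB6 and ITGB8 could hardly be compared, since MDA-MB-453 held 6 to 15 counts of ITGB6 and 0 to 9 counts of ITGB8 in its libraries. ITGB6 had an interaction of -1.06 (SE 0.37, adjusted p = 0.194).

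Untreated libraries of the lines were compared to describe what each held before TWEAK. They also serve as controls of the 2 TWEAK comparisons, so the comparisons are not independent, and the line cannot be told apart from a batch shared by all its libraries. Of the 25 chains tested 9 were higher in MDA-MB-453 and 14 lower, where 42.4% and 44.8% of 16315 genes were called, 87.2% in all. Replicates did not overlap for the same 9 and 14 chains, against 41.7% and 43.6% of all genes, or 85.3% in either direction, so that most genes of any kind differed between these lines. With at least 10 counts required in every library the 14 lower chains became 7, since ITGA1, ITGA2B, ITGA9, ITGAM, ITGB6, ITGB8 and LAMA3, which are near 0 in MDA-MB-453 and passed through SKBR3, were no longer tested. With DESeq2 they became 16. ITGA6 differed most among the chains that were higher, with the 172 to 185 CPM given above against 0.467 to 1.07 CPM, a log2 difference of 8.02 (SE 0.10, adjusted p = 3.76e-29). LAMC1 was higher by 2.79 (SE 0.14), ITGA10, a collagen receptor chain, by 1.99 (SE 0.21), ITGA3 by 1.32 (SE 0.05), ITGAL by 1.16 (SE 0.20) and ITGA2 by 1.01 (SE 0.06). LAMB2, ITGAV and ITGB1 were higher by 0.54, 0.46 and 0.08, and the call of ITGB1 (adjusted p = 0.0671) was lost in 5 of the 12 alternative fits, among them that without untreated SKBR3 replicate 3 (adjusted p = 0.321) and DESeq2 (adjusted p = 0.101), and it also misses a threshold of 0.05. Without that replicate ITGA7 was called higher, by 0.58 (adjusted p = 0.0663).

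Lower in MDA-MB-453 was LAMA3, at 9.69, 9.39 and 8.20 CPM in SKBR3 and at 1, 0 and 0 counts in MDA-MB-453, at least 82.5-fold. ITGB6 had a log2 difference of -7.25 (SE 0.12), on 7 to 11 counts in MDA-MB-453, and ITGA9, an alpha chain that binds tenascin, was at 5.96 to 6.95 CPM in SKBR3 and at 0 to 0.146 CPM in MDA-MB-453. LAMB1 differed by -4.93 (SE 0.05), LAMB3 by -3.38 (SE 0.15), ITGA5 by -2.30 (SE 0.10), ITGA1 by -1.92 (SE 0.31), ITGB2 by -1.80 (SE 0.18), LAMA5 by -1.34 (SE 0.04), ITGB5 by -1.15 (SE 0.04) and ITGB4 by -0.68 (SE 0.05). ITGA2B, ITGB8 and ITGAM, at the limit of detection in MDA-MB-453, were at least 10.3-fold, 8.34-fold and 7.16-fold lower. ITGA7 and ITGAE were not called.

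Read as pairs, these levels leave different receptors possible at the level of RNA. Of 24 known integrin pairs, both chains reached 1 CPM for 7 in untreated and 10 in TWEAK-treated SKBR3, with ITGA1-ITGB1, ITGAM-ITGB2 and ITGAV-ITGB8 added. ITGA1 moved only from 0.978 to 1.08 CPM and was not called. In MDA-MB-453 the count was 9 in both groups. The pair ITGA6-ITGB4 was among these 9, whereas in SKBR3 ITGB4 was present with ITGA6 below 1 CPM. ITGAE reached 1 CPM in every group, with its listed partner ITGB7 below 1 CPM.

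Genes that act with these chains were examined as 4 further lists, whose counts stand against 6.6% of all genes called higher and 3.82% lower in SKBR3. For MDA-MB-453 these shares were 1.29% and 0.208%, and 2.36% had a smaller effect in the interaction. No list was tested as a set. Of 31 tested adaptors that link integrin tails to actin, 11 were higher and 1 lower in SKBR3, with the largest changes in TNS3, a tensin, by 1.17 (SE 0.09, adjusted p = 7.00e-06) and in FLNA, an actin crosslinker, by 0.68 (SE 0.06, adjusted p = 2.94e-05). In MDA-MB-453 1 of 27 was higher, TNS3 by 0.34 (SE 0.07, adjusted p = 0.0242). The median log2 fold change of the tested adaptors was 0.13 in SKBR3, and it was -0.06 in MDA-MB-453. In the interaction 7 of 31 adaptors had a smaller effect in MDA-MB-453, TNS3 (-0.83) and FLNA (-0.65) among them. Of the integrin ligands, 4 of 14 tested were higher and 1 lower in SKBR3, led by ICAM1, a ligand of ITGAM-ITGB2, which went from 3.92 ± 0.223 to 22.0 ± 2.18 CPM (log2 fold change 2.48, SE 0.11), and by FBLN5, a fibulin, by 1.12 (SE 0.12). In MDA-MB-453 2 of 15 were higher and 1 lower, with FN1, the fibronectin bound by ITGA5-ITGB1, higher by 0.79 (SE 0.14, adjusted p = 0.00797) and ICAM1 by 0.55 (SE 0.08, adjusted p = 0.00201). The effect on ICAM1 differed between the lines by -1.93 (SE 0.13, adjusted p = 1.30e-07). The ligands had medians of 0.07 in SKBR3 and 0.03 in the other line.

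Among other basement membrane genes, 4 of 10 tested were higher and 2 lower in SKBR3. COL4A1 and COL4A2, which form the collagen network that lies beside the laminins, rose most, from 2.15 ± 0.172 to 11.8 ± 1.40 CPM (log2 fold change 2.44, SE 0.13, adjusted p = 7.54e-07) and from 4.89 ± 0.324 to 16.3 ± 0.807 CPM (1.73, SE 0.09, adjusted p = 7.69e-07). In MDA-MB-453 1 of 8 was higher, NTN4, a netrin that binds laminin, by 0.39 (SE 0.04, adjusted p = 0.000140). Of 9 tested laminin receptors outside the integrins and hemidesmosome genes, SDC4 rose by 0.40 (SE 0.07, adjusted p = 0.00309) and SDC1 fell by 0.20 (SE 0.06, adjusted p = 0.0855) in SKBR3, both being syndecans, and 0 of 9 were called in MDA-MB-453 by edgeR (4 at an unadjusted p under 0.05). The median of the basement membrane genes was 0.09 in SKBR3 and -0.01 in the other line, and that of the laminin receptors was 0.14 and 0.04.

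Markers of other cell types were read beside the chains. Summed basal epithelial markers went from 1.44 to 2.69 CPM in untreated to 5.55 to 7.21 CPM in TWEAK-treated SKBR3, and summed endothelial markers from 3.89 to 5.10 CPM to 6.42 to 7.72 CPM, the latter through 1 gene. KRT5, a keratin of basal cells, rose by 3.46 (SE 0.28, to a mean of 3.38 CPM), TP63 by 1.96 (SE 0.39) and CDH5, the endothelial cadherin, by 1.26 (SE 0.18). Untreated SKBR3 libraries held 5 to 10 counts of KRT5 and 3 to 5 counts of TP63. Both passed the filter on low counts through their TWEAK libraries alone, so their calls rest on the group in which they were high and their folds are uncertain. KRT17 (0.85, adjusted p = 0.114) and VWF, the other endothelial marker tested (-0.10, adjusted p = 0.783), were not called. KRT5, TP63 and CDH5 moved with the SKBR3 chains that rose, and their part in those changes was not tested. In MDA-MB-453 basal markers summed to 2.86 to 3.02 CPM before and 3.50 to 3.65 CPM with TWEAK, and 0 of the basal or endothelial markers tested were called by edgeR (1 at an unadjusted p under 0.05, TP63). Fibroblast markers summed to 18.0 to 21.0 CPM in untreated and 17.5 to 18.7 CPM in TWEAK-treated SKBR3. In MDA-MB-453 they summed to 116 to 123 CPM untreated and 107 to 113 CPM with TWEAK, ranges that do not overlap. In each group nearly all of the sum was COL1A1. It was the 1 fibroblast marker tested in MDA-MB-453 and was not called by edgeR (log2 fold change -0.12, unadjusted p under 0.05). DCN and LUM, fibroblast markers too, had 0 counts in all MDA-MB-453 libraries. The part of fibroblast markers in the values of the chains was not tested. The 3 platelet markers were at 0 counts in all libraries. In bulk RNA, fewer cells of a type and less RNA per cell cannot be told apart.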

How the data were processed

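RNA-seq of SKBR3 and MDA-MB-453 was analysed from the count tables that the authors deposited, 1 for each line. Per the study's methods, the authors trimmed adaptors with Trimmomatic, mapped reads to hg38 with STAR and extracted raw counts per gene with featureCounts, without normalisation. The strand setting and the annotation release are not given in the sources used here, and the labels and the methods name different library kits. Identifiers were matched to GENCODE 44 (61918 of 62696 with version, 71 not at all), which gave exon lengths. Every column of per-sample values was used. Of the leukocyte markers listed, 5 are reported and another is not reported here.

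Libraries were grouped by the labels. Tests used edgeR 4.0.16 in R 4.3.3 with filterByExpr, TMM factors, two-sided quasi-likelihood tests and Benjamini-Hochberg adjustment over all genes tested, at an adjusted p of at most 0.1. SE is the log2 fold change divided by the root of F, and the prior count was 0.125. Lines were fitted separately, the interaction over 12 libraries, and untreated lines over 6. Levels use TMM factors over 12 libraries. The limit of detection was set at 3 counts per library, and where no library of a group exceeded it a fold against that group is a bound on the mean of the other group over 3 counts per library. These limits cover counting error only. With 3 against 3 libraries an exact two-sided permutation test cannot go below 0.1.

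Alternatives were an adjusted p of 0.05, DESeq2 1.42.0 and its size factors, no filter, at least 10 counts in every library, all 12 libraries in one fit, a replicate block, and each library left out.

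Chains were named with full values where called in a TWEAK comparison or the interaction, or where most abundant per kilobase in their class. Of each further list, at most the 2 called genes with the largest change and at least 1 CPM were named in each line. ITGB1, ITGB3, ITGA6 in SKBR3, LAMB1, LAMA3 and the start regions were chosen after their values were seen. The members, lists and motifs were chosen with earlier results of these data known. Sequences are from RefSeq on GRCh38.p14.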

Additional observations from a re-analysis of the deposited data

Results flagged for a closer look

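The test of the interaction of line and treatment flagged 5 chains whose TWEAK effect differed between the lines, each time smaller in MDA-MB-453. With the SKBR3 effect subtracted, the log2 effect in MDA-MB-453 was -1.70 for LAMC1, -1.30 for ITGA5, -0.61 for ITGAV, -0.36 for ITGA3 and -0.33 for ITGB4. In SKBR3 the TWEAK libraries of each of these chains lay above the untreated ones, and in MDA-MB-453 the groups overlapped.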

How the results depend on the processing

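No result changed direction while called. In SKBR3, 11 chains were called higher, 9 to 13 with a library left out and 10 to 12 under the other settings. These counts take in ITGB3 where its counts let it be tested, which was with DESeq2, with no filter, and without any untreated library or TWEAK replicate 2. ITGB3 had 0 counts in untreated SKBR3, so those calls rest on its TWEAK libraries alone. The 1 chain called lower, ITGB5, became 0 at an adjusted p of 0.05, with no filter on low counts and with the replicate block, and 0 to 1 with a library left out. In MDA-MB-453 the 2 chains called higher became 1 with at least 10 counts in every library, which removes ITGAM by construction. They stayed 2 without any one library, and the count of lower chains, 0, became 1 with the replicate block (ITGA6) and 0 to 2 with a library left out. For the interaction, 0 larger effects became 1 with DESeq2 and with at least 10 counts (ITGB5), and 0 to 1 with a library left out, while 5 smaller effects became 2 to 8. Between untreated lines, 14 lower chains became 7 with at least 10 counts in every library, a filter that removes chains near 0 in MDA-MB-453, and 16 with DESeq2 and with no filter, where ITGB7 and LAMA2 were added. The call of ITGB1 there was lost with DESeq2 size factors (adjusted p = 0.1246), with DESeq2 (0.101), with at least 10 counts (0.171), in the fit of all 12 libraries (0.288) and without untreated SKBR3 replicate 3 (0.321). Where no construction is named, the cause was not tested. Of the values of single chains under all alternatives, 1279 kept their side of the threshold, 38 lost a call and 13 gained one. Replicate numbers were not taken to pair the samples, since the labels tie them to no shared day or culture and not every pair exceeded 0.1. The study states that cell line work was repeated on different days, so a number may mark a day. Correlations of deviations at the same number were 0.169, -0.144 and -0.233 for SKBR3, and for MDA-MB-453 they were 0.129, 0.133 and 0.0239. In MDA-MB-453, and not in SKBR3, every library correlated best with its own number, a hint from the data. With the block, called chains numbered 10 higher in SKBR3 and 3 higher in MDA-MB-453. Beyond ITGB5 and ITGA6, the block lost the call of LAMA5 in SKBR3 (adjusted p = 0.109) and added LAMB1 in MDA-MB-453 (adjusted p = 0.0868). Depth limits ITGAM, ITGB8 and ITGB6 in MDA-MB-453 and ITGB3 in SKBR3.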
